A study of Homo sapiens with 6 samples.

Results

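The zinc finger genes of the long arm of human chromosome 19, band 19q13.4, were described in ME180, an established line from a human cervical epidermoid carcinoma. A list of 36 genes was chosen by name because ZNF83 was nearly lost in the cells with the knockout construct, so the contrast between the groups helped to choose them. Their values, and whether each passed the fit over all genes (a called gene), are given as a description and support nothing. The gene table of 18358 genes held 35 of the 36, and ZNF415 was not analysed here. RNA-seq was made from 3 libraries of cells with the empty vector (vector) and 3 libraries of cells with a single-guide construct against VPS13C (sgVPS13C), whose genotype is given as a VPS13C knockout. The VPS13C protein moves lipids at contact sites between the endoplasmic reticulum and other organelles. Both groups had been exposed for 48 h to cisplatin at 2 µM, a drug whose platinum centre binds and crosslinks DNA. Cells without cisplatin were not analysed here. Whether replicates came from independent cultures is not in the labels, and neither is whether the sgVPS13C cells descend from a single clone or a mixed population. Errors and p-values therefore cover only the variation among these libraries, part or all of which may be technical.

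Most genes of this cluster encode proteins with a row of zinc fingers, which read DNA sequence, and a KRAB domain near the start of the protein. The KRAB domain binds the corepressor KAP1 (TRIM28), which brings in the histone methyltransferase SETDB1 and other chromatin proteins. Many KRAB zinc finger proteins bind and silence transposable elements. The genes on chromosome 19 arose by repeated tandem duplication, so neighbours often resemble each other in sequence.

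Windows of 300 bases around the transcription starts (RefSeq, GRCh38.p14, mostly on the side before the start) were found for 30 of the 36 members, 42 windows in all. ZNF83 had an upstream start and a downstream start 52141 bases apart, both on the minus strand, and its 2 windows were 80.7% identical. The 5 windows printed here show how closely the ZNF83 starts resemble those of its neighbours ZNF701 and ZNF611 and of ZNF845, farther along the cluster. They lie at chr19:52690447-52690746 (ZNF83 upstream, minus strand), chr19:52638306-52638605 (ZNF83 downstream, minus strand), chr19:52570037-52570336 (ZNF701, plus strand), chr19:52734995-52735294 (ZNF611, minus strand) and chr19:53333499-53333798 (ZNF845, plus strand). Each reads 5′ to 3′ on the strand of its gene, and capitals mark the letters CCGGAAG (the core of ETS factor motifs) and CCGCCC (a GC box) on the printed strand.
ZNF83, upstream window: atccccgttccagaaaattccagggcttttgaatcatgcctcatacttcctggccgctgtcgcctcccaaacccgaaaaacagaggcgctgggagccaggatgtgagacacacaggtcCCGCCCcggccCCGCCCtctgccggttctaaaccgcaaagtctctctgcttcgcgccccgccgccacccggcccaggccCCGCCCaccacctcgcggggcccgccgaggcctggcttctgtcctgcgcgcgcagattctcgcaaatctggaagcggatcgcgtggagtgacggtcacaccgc
ZNF83, downstream window: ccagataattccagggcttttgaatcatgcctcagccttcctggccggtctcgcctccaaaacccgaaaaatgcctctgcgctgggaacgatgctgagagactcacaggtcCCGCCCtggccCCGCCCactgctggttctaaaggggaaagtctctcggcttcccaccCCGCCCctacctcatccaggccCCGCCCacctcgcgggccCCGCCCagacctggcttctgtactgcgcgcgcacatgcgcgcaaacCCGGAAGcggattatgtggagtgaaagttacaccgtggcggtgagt
ZNF701: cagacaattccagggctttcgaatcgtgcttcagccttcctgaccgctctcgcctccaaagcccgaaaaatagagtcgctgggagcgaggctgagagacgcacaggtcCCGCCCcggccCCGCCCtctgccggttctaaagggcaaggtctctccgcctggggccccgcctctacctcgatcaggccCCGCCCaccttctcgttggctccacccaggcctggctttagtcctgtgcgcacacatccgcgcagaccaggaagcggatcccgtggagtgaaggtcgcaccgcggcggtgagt
ZNF611: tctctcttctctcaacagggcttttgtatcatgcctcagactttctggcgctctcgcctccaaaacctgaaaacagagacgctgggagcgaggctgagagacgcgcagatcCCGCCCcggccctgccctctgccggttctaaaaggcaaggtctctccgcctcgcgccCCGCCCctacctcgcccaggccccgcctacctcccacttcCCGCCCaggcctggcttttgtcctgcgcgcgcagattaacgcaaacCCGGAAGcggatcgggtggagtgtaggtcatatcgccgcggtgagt
ZNF845: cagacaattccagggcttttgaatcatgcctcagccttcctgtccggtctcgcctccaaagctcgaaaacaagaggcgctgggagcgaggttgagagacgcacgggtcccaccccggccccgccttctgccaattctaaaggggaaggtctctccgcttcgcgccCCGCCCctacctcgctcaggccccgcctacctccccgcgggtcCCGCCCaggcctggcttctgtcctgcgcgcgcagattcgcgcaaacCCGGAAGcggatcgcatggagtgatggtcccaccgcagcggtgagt

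Both motifs were searched on both strands. The 42 member windows come from 30 genes, and some windows of the same gene overlap but are counted separately, so they are not independent. CCGGAAG was found in 23 of the 42 member windows and in 10.3% of all 35116 windows in the table. CCGCCC was found in 29 of the 42 and in 45% of all windows. The median number of CpG dinucleotides was 23.5 in member windows and 14 over all windows. On the printed strand, the ZNF83 downstream window held CCGGAAG 1 time and CCGCCC 5 times, and the upstream window held CCGCCC 3 times. These are matches of letters and not measured binding sites.

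All libraries had total counts between 14774065 and 15799149. The VPS13C level in CPM (read counts scaled to a common library size) was 48.1, 30.1 and 35.0 in vector and 28.6, 18.6 and 23.7 in sgVPS13C libraries. The sgVPS13C libraries were all below the vector libraries, but the log2 fold change of −0.67 (SE 0.22) had an adjusted p of 0.0513 in edgeR's quasi-likelihood test and did not pass 0.05. The 12 squamous and epithelial markers were all detected, with summed levels of 15333 to 19599 CPM in vector and 22240 to 27128 in sgVPS13C libraries. They went both ways: 4 were called higher (KRT5, KRT14, KRT6A and DSP) and 3 lower (KRT18, from 1168 to 396 CPM, EPCAM and KRT8). The 6 measured fibroblast markers summed to 37.2 to 44.2 CPM in vector and 47.1 to 50.3 in sgVPS13C libraries, nearly all of it COL1A1, which was not called. Among them the proteoglycan gene DCN was called higher, from a mean of 0.188 to 3.78 CPM. The 10 blood and endothelial markers summed to 80.2 to 94.0 CPM in vector and 63.9 to 71.3 in sgVPS13C libraries, most of it the macrophage marker CD68, which was called lower (78.5 to 43.4 CPM). Of the endothelial markers VWF was called higher (5.68 to 22.6 CPM), CDH5 was called lower (2.27 to 0.152 CPM) and PECAM1 had at most 1 count in any library, as did the leukocyte marker PTPRC and the T cell marker CD3E. DCN and CDH5 passed the low-count filter only through the group where they were high, so nothing is read from their calls. The part of these marker differences in the results on zinc finger genes was not tested.

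ZNF83 was the member with by far the largest difference between the groups. It lies at chr19:52612377-52690496 (GRCh38.p14, minus strand; Entrez gene 55769) and encodes a zinc finger protein without a KRAB domain. Its level in CPM was 8.61, 8.36 and 8.57 in vector and 0.131, 0.425 and 0.323 in sgVPS13C libraries. All sgVPS13C libraries were far below all vector libraries, and the groups did not overlap. The means were 8.51 ± 0.133 and 0.293 ± 0.149 CPM (SD, n = 3), so that 3.45% of the vector level was left. The counts behind these levels summed to 408 in vector and 13 in sgVPS13C libraries, a ratio of 29.3 after scaling with a 95% interval of 17.0 to 55.6 that covers counting error only. In bulk RNA, fewer cells with the transcript and less transcript per cell cannot be told apart.

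The log2 fold change of ZNF83, sgVPS13C against vector, was −4.83 (SE 0.27). It was the 13th lowest of the 13717 genes tested, so larger falls occurred elsewhere in the genome. It was the only member called with at least a 2-fold change, and 5.71% of all tested genes were called at least 2-fold lower. On the FPKM scale, which is per length and per library, ZNF83 fell from a mean of 3.49 to 0.123.

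Every ZNF83 transcript with reads in vector libraries had a lower sum or none in sgVPS13C libraries. Of 10 RefSeq transcripts in the transcript table, 6 had estimated counts in vector libraries and 1 had any in sgVPS13C libraries. NM_018300.3 had 0, 47.23 and 81.61 estimated counts in vector and 2, 6 and 5 in sgVPS13C libraries. NM_001105552.1 had 79.61, 37.65 and 22.84 in vector libraries and 0 in each sgVPS13C library. Vector libraries differed widely in which transcript took the reads while their gene totals were close, so the split between transcripts is uncertain. Of the other transcripts, NM_001105551.1 summed to 50.29, NM_001105550.1 to 45.31, NM_001105549.1 to 28.39 and NM_001277952.1 to 15.06 estimated counts over the vector libraries, all with 0 in sgVPS13C libraries.

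**Figure D1:**
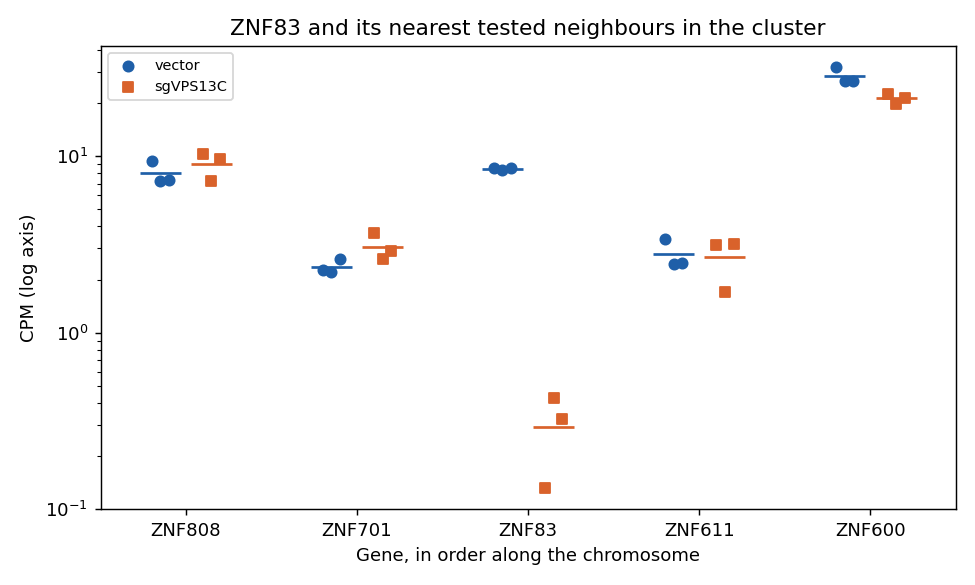
ZNF83 and the nearest tested members on each side of it, in CPM by library (log axis), with a point per library and a bar at the group mean. The sgVPS13C points of ZNF83 lie between 0.131 and 0.425 CPM, below its vector points of 8.36 to 8.61, while the groups of ZNF808 and ZNF611 overlap.

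The nearest tested members on each side of ZNF83 are given as a description, since ZNF83 was chosen for its fall. Reads of ZNF701 and ZNF808 may be shared with other genes, so their levels are uncertain. On the side of lower coordinates, ZNF701, the adjacent member, had 2.27, 2.20 and 2.60 CPM in vector and 3.68, 2.62 and 2.91 CPM in sgVPS13C libraries. All sgVPS13C libraries were above the vector libraries, but the log2 fold change of 0.38 (SE 0.20) was not called. ZNF808, whose loss of function has been linked to failure of the pancreas to form in humans, had 9.45, 7.26 and 7.36 CPM in vector and 10.2, 7.23 and 9.70 CPM in sgVPS13C libraries. Its groups overlapped, and its log2 fold change was 0.18 (SE 0.18).

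On the other side, ZNF611 had 3.41, 2.46 and 2.47 CPM in vector and 3.15, 1.70 and 3.17 CPM in sgVPS13C libraries, with overlapping groups and a log2 fold change of −0.05 (SE 0.28). ZNF600 had 32.05, 26.8 and 26.8 CPM in vector and 22.7, 19.9 and 21.4 CPM in sgVPS13C libraries. It was called lower, with a log2 fold change of −0.42 (SE 0.12), but the call was lost when any single library was left out. ZNF600 and ZNF28 overlap over 24226 bases, and the strand used in counting is not given in the sources used here, so reads of the pair may be shared. ZNF83 likewise overlaps LOC122539214 over 40050 bases.

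**Figure D2:**
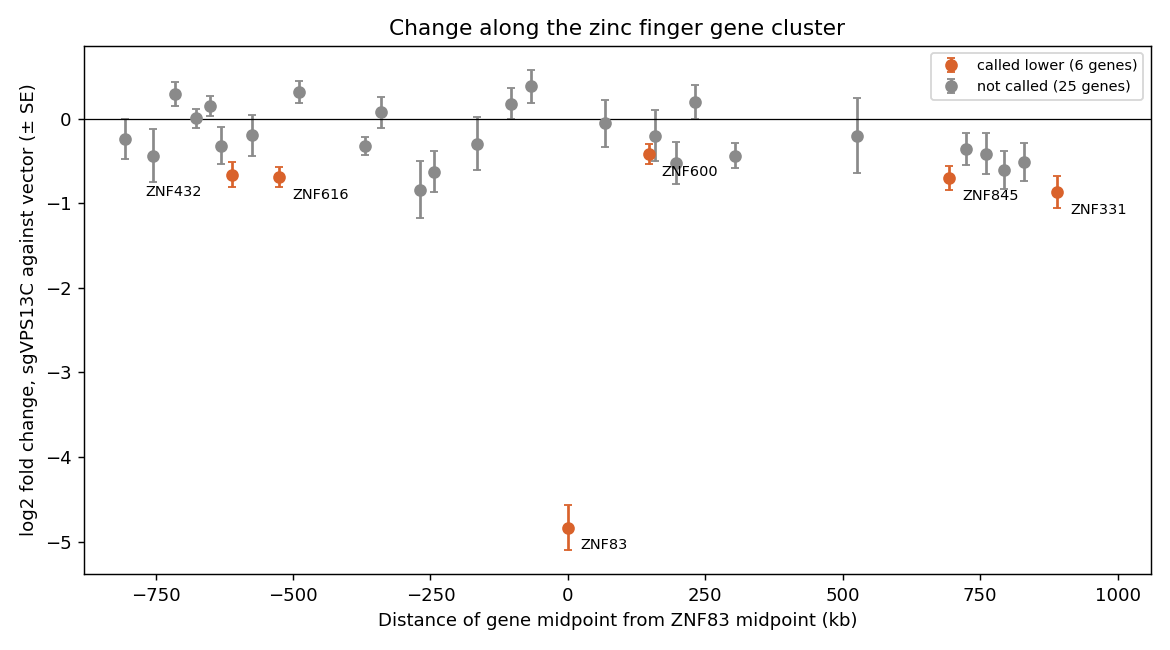
Log2 fold change of the tested members, sgVPS13C against vector, by distance in kb from the ZNF83 midpoint, with bars of 1 SE and called members marked. ZNF83 stands at −4.83, and every other tested member lies between −0.87 and 0.38.

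Across the cluster, lower levels were more frequent than higher ones but few passed the test. Of the 31 members tested, 6 were called lower (edgeR, Benjamini-Hochberg adjusted p under 0.05) and 0 were called higher, beside 17.4% of all tested genes called lower and 17.8% called higher. The 6 made up 19.4% of the tested members, close to that background, and the contrast had been used to choose the list, so nothing is read from the count. An unadjusted p under 0.05 was found in 12 members (38.7%) and in 44.8% of all tested genes. The median log2 fold change was −0.33 over the members and 0.00 over all tested genes. It was −0.32 without ZNF83. A log2 fold change below 0 was found in 23 of the 31 members (74.2%) and in 49.6% of all tested genes. In 11 members all sgVPS13C libraries lay below all vector libraries (24.0% of all tested genes), in 3 they lay above (24.5% of all tested genes), and in 17 the groups overlapped.

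Besides ZNF83 and ZNF600, the members called lower were ZNF432, ZNF616, ZNF845 and ZNF331, which are named here after their values were seen. ZNF616 had 14.2, 14.0 and 13.6 CPM in vector and 8.41, 8.01 and 9.50 CPM in sgVPS13C libraries (log2 fold change −0.69, SE 0.12). ZNF845 had 26.2, 23.5 and 23.4 CPM in vector and 17.1, 12.3 and 15.5 CPM in sgVPS13C libraries (log2 fold change −0.70, SE 0.14). Both fell with no overlap between the groups. ZNF432 had 38.3, 31.8 and 29.3 CPM in vector and 22.7, 18.0 and 22.2 CPM in sgVPS13C libraries (log2 fold change −0.66, SE 0.15). ZNF331, an imprinted gene at the far end of the cluster, had 23.2, 16.5 and 20.1 CPM in vector and 13.2, 8.79 and 10.7 CPM in sgVPS13C libraries (log2 fold change −0.87, SE 0.19). The groups of both genes were apart, and the call of ZNF331 was lost without sgVPS13C replicate 3.

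The 25 tested members that were not called had log2 fold changes from −0.84 to 0.38, and examples are named here after their values were seen. ZNF350, also known as ZBRK1, a corepressor that works with BRCA1, had a mean of 9.88 ± 0.572 CPM in vector and 9.91 ± 0.0801 CPM in sgVPS13C libraries (SD, n = 3). The sgVPS13C libraries lay above the vector libraries without a call in ZNF836 (log2 fold change 0.32), ZNF613 (0.29) and ZNF701. At the low end, ZNF880 had a log2 fold change of −0.84 (SE 0.34) at a mean of 1.09 CPM in vector libraries. The 4 members not tested had few reads. Their summed counts, vector and then sgVPS13C, were 2 and 3 for ZNF610, 3 and 1 for ZNF534, 17 and 12 for ZNF347, and 1 and 0 for ZNF677, so no difference was detectable at this depth.

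Levels per length differed widely between members. In vector libraries 7 members had a mean of at least 5 FPKM, 17 had 1 to 5, and 11 had less than 1. ZNF761 was the highest, with 14.5 FPKM, followed by ZNF841 with 13.1 and ZNF766 with 11.9, with SDs of 3.16, 4.21 and 0.993 FPKM (n = 3), so neighbours in this order did not differ beyond their spread. In CPM, ZNF761 had 56.1, 34.2 and 41.6 in vector and 34.2, 22.3 and 29.9 in sgVPS13C libraries, with a log2 fold change of −0.61 (SE 0.23). The sgVPS13C libraries were all below the vector libraries, by under 0.1 CPM at the closest, and the gene was not called. ZNF841 had 61.4, 34.1 and 39.7 CPM in vector and 46.3, 31.3 and 40.3 CPM in sgVPS13C libraries, with overlapping groups and a log2 fold change of −0.20 (SE 0.25). ZNF766 had 33.2, 33.2 and 37.2 CPM in vector and 28.9, 25.5 and 28.3 CPM in sgVPS13C libraries, with groups apart. Its log2 fold change of −0.33 (SE 0.11) narrowly missed a call (edgeR adjusted p 0.0502).

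The libraries of a group also differed from each other in the same way over many members. Vector replicate 1 was the highest of its group in 23 of the 31 tested members, and sgVPS13C replicate 2 was the lowest of its group in 25. The median deviation from the group mean over the members was 0.22, −0.12 and −0.07 log2 units in the vector libraries and 0.19, −0.21 and 0.08 in the sgVPS13C libraries. Gene lengths were estimated from the counts and FPKM of these same libraries. The median estimate was 4002 bases over the members, against 2825 over all tested genes. The 4077 tested genes at least as long as the median member deviated in the same directions, by 0.17, −0.12 and −0.05 and by 0.13, −0.17 and 0.04. With each library's trend on gene length removed, 12 of the 31 members were called lower, beside 23.0% of all tested genes, and the median log2 fold change was −0.37. The part of transcript length in the members' values was not tested further.

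**Figure D3:**
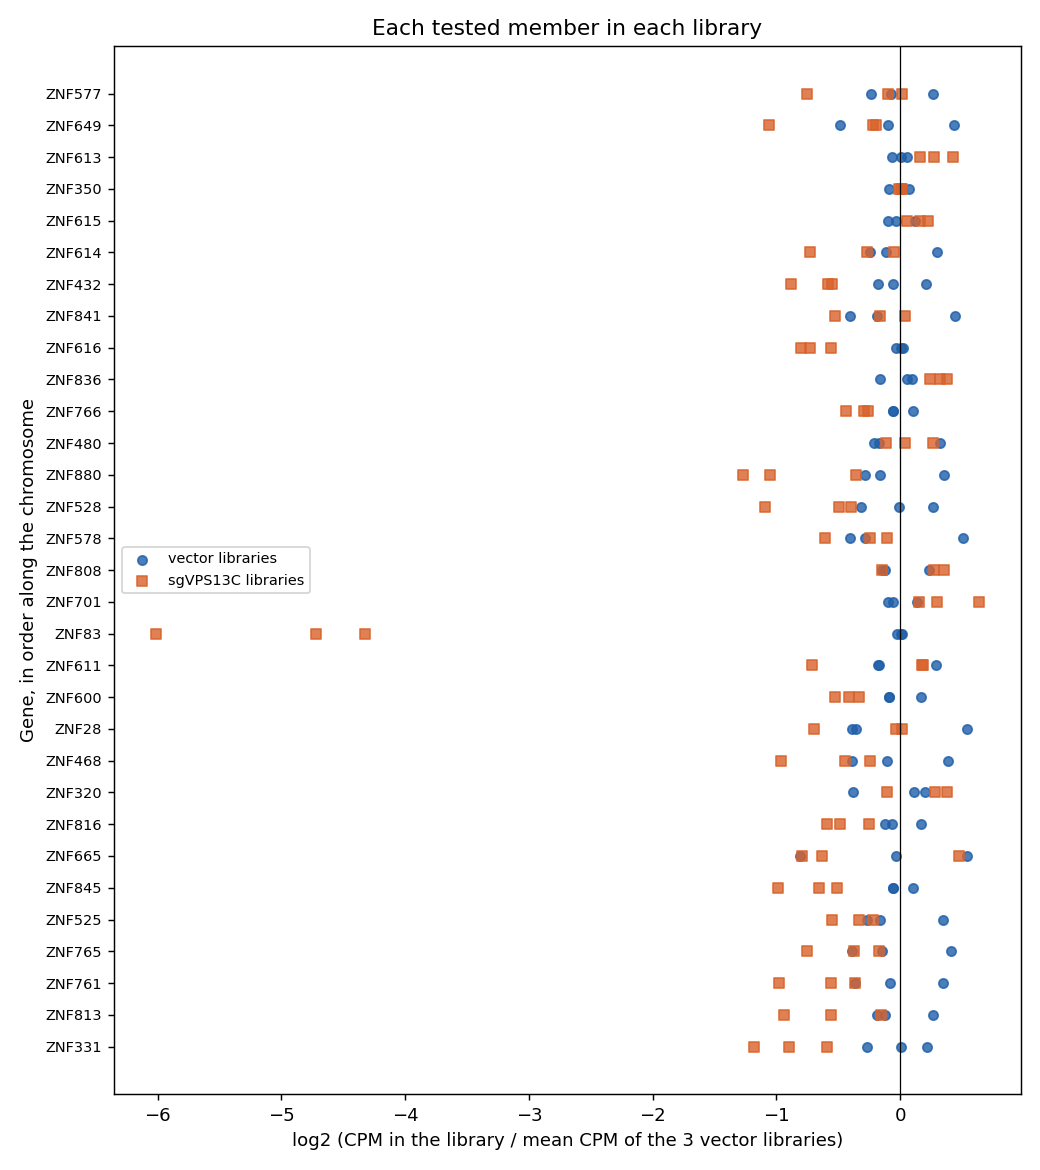
Each tested member in each library, as log2 of its CPM over the mean CPM of the 3 vector libraries, with a circle per vector library, a square per sgVPS13C library and genes in chromosomal order. The squares of ZNF83 lie far to the left of those of every other member, and in 17 members circles and squares overlap.

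Sequence features of the members are described here. The list held KRAB zinc finger genes and ZNF83, so the fingers and KRAB domains of the members follow from that choice. The longest open reading frames in their GENCODE transcripts held 7 to 26 zinc fingers of the classical type, with a median of 13, and ZNF83 had 14. A short amino acid signature of the KRAB domain was found in 34 of the 36 and was not found in ZNF83 and ZNF415. To gauge whether reads of one gene could be counted for another, stretches of 50 bases, the read length, were compared between genes. In ZNF83 2.14% of such stretches also occurred in another gene, the median member had 5.48%, and 17 members had less than 5%. The levels of ZNF320 (75.2% shared), ZNF468 (55.8%), ZNF808 (22.6%) and ZNF701 (20.9%) are uncertain for this reason.

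The start windows split the members into those like ZNF83 and the rest. Besides ZNF83, 9 members had a window 78.7% to 84.7% identical to one of the ZNF83 windows: ZNF808, ZNF701, ZNF611, ZNF468, ZNF845, ZNF525, ZNF765, ZNF761 and ZNF813. The other 20 members with a window were 58.7% to 69.7% identical, and the limit of 75% between the groups was set after the values were seen. Gaps were allowed, so unlike windows can also match at many bases. Windows of unrelated genes were not compared, so no baseline for these values is given. Of the 9, 1 (ZNF845) was called lower, and their median log2 fold change was −0.41. Of the 16 tested members with other windows, 3 were called lower, with a median of −0.31. These are 11.1% and 18.8%, beside 17.4% of all tested genes called lower. The windows printed for ZNF701, ZNF611 and ZNF845 belong to genes with log2 fold changes of 0.38, −0.05 and −0.70. ZNF83 was chosen for its loss, so nothing is read from its contrast with these genes. The part of the start windows in the members' values was not tested.

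**Figure D4:**
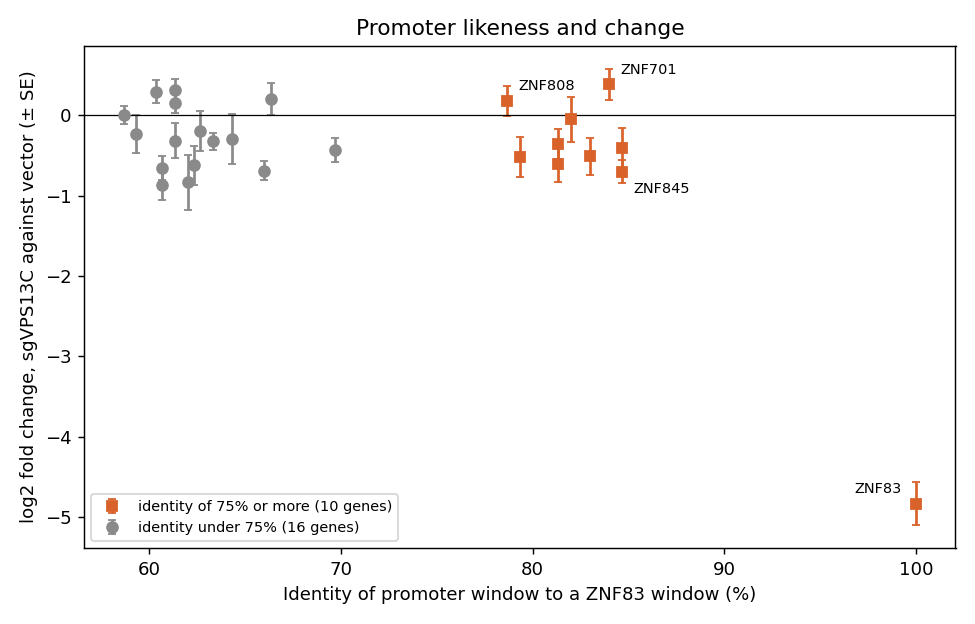
Log2 fold change of each tested member against the identity in percent of its closest start window to a ZNF83 window (ZNF83 itself is at 100 by construction). The 9 members at 78.7% to 84.7% have log2 fold changes from −0.70 to 0.38, and those at 58.7% to 69.7% have −0.87 to 0.32. Bars are 1 SE.

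The few other genes tested within the cluster, mostly zinc finger genes too, were not called. Between the first and the last member, over 1776 kb of chromosome 19, lay 64 other RefSeq genes, 8 of which were in the gene table and 5 of which were tested. By edgeR 0 of the 5 were called and 0 had an unadjusted p under 0.05, beside 35.1% and 44.8% of all tested genes, and with so few genes nothing is read from these counts. Their log2 fold changes were 0.11 for PPP2R1A, the scaffold subunit of protein phosphatase 2A, 0.05 for ZNF888, 0.00 for ZNF816-ZNF321P, −0.18 for ZNF160 and 0.02 for ZNF765-ZNF761. The readthrough genes ZNF816-ZNF321P and ZNF765-ZNF761 overlap the members they are named for.

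ERVV-2, an envelope gene left by an endogenous retrovirus, lies between ZNF83 and ZNF845 and is named here after its values were seen. It had 0.538, 0.713 and 1.08 CPM in vector and 0, 0.142 and 0.129 CPM in sgVPS13C libraries, with groups apart. Its counts summed to 37 and 4, a ratio of 8.65 after scaling with a 95% counting interval of 3.11 to 33.4. It was too low to be tested among the 13717 genes. It entered the fit with no filter on low counts, and without vector replicate 1 or any 1 of the sgVPS13C libraries. Its calls there (lower) are no support, since it was named for its values and passed the filter through the vector libraries. Its neighbour and close relative ERVV-1 had means of 0.548 ± 0.217 and 0.551 ± 0.455 CPM (SD, n = 3), vector and then sgVPS13C.

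The partners of KRAB zinc finger proteins in repression changed in both directions. Of 40 genes listed for KAP1 and its chromatin partners, 39 were tested, 4 were higher (10.3%) and 3 were lower (7.69%) by edgeR's adjusted p, beside 17.8% and 17.4% of all tested genes, and the median log2 fold change was 0.02. TRIM28 itself had 382, 591 and 532 CPM in vector and 364, 546 and 384 CPM in sgVPS13C libraries, with overlapping groups (log2 fold change −0.22, SE 0.22, edgeR adjusted p 0.473). SETDB1 had 28.8, 32.2 and 33.3 CPM in vector and 35.9, 34.2 and 36.2 CPM in sgVPS13C libraries, with groups apart but no call (log2 fold change 0.17, SE 0.10, edgeR adjusted p 0.232).

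The nucleosome remodeler CHD3 rose from 189 ± 2.65 to 307 ± 13.5 CPM (SD, n = 3; log2 fold change 0.70, edgeR adjusted p 0.00102). The DNA methyltransferase DNMT3A (0.66, edgeR adjusted p 0.00419) and the histone methyltransferase SUV39H1 (0.62, edgeR adjusted p 0.00924) rose as well, as did the histone-binding protein RBBP7 (0.33, edgeR adjusted p 0.0239). The genes that fell were PPHLN1, a subunit of the HUSH silencing complex (−0.55, edgeR adjusted p 0.00806), GATAD2A, a subunit of the NuRD complex (−0.52, edgeR adjusted p 0.00504), and HELLS, a chromatin remodeler of DNA methylation (−0.50, edgeR adjusted p 0.0426). Without sgVPS13C replicate 2, 8 partners were called higher in place of 4, beside 17.4% of all genes tested there. RBBP7 is named after its values were seen.

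A second list, of KRAB zinc finger genes at or near 19p12 on the short arm of the same chromosome, was set beside this one. The bands of its genes were not checked. Of its 34 genes in the gene table, 16 passed the low-count filter and were tested, and by edgeR 5 were lower (31.3%) and 0 higher, beside 17.4% and 17.8% of all tested genes, with a median log2 fold change of −0.32. The genes of this second list named here were chosen after their values were seen. ZNF708 had 2.21, 2.07 and 1.78 CPM in vector libraries and 0 in each sgVPS13C library. ZNF493 had 4.72, 3.18 and 2.98 CPM in vector and 1.05, 0.567 and 0.841 CPM in sgVPS13C libraries (log2 fold change −2.13, SE 0.30). Reads of ZNF708 were thus absent in the sgVPS13C libraries, while ZNF493 kept 22.6% of its vector level. Both genes are among the 5 called lower. They passed the low-count filter through the vector libraries, so nothing is read from their calls. The difference between the lists was not tested. Tested genes named ZNF and a number, without the 19q13.4 members but with the genes of the second list, numbered 375. Of these, 27 were higher (7.20%) and 52 were lower (13.9%), with a median log2 fold change of −0.04.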

How the data were processed

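The authors deposited a gene table and a transcript table with expected counts (estimated counts, with fractions where reads were shared) and FPKM, scaled for length and library size, per the file headers. The genome build was hg38, per the submitters' processing notes. Aligner, counter and strandedness: not given in the sources used here. Another 24 columns of per-sample values were not used.

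Expected counts were rounded to whole numbers. The filterByExpr function, with a minimum count of 10, kept 13717 genes, and all of them entered the quasi-likelihood test of edgeR 4.0.16 (R 4.3.3) with TMM scaling and robust dispersion. Genes with a Benjamini-Hochberg adjusted p under 0.05 are named as called. Library sizes scaled by TMM gave the CPM. Each SE was found by dividing the absolute log2 fold change by the root of the F statistic. The pipeline was tested on simulated data. Alternatives were DESeq2 1.42.0, limma-voom (limma 3.58.1), RLE factors, scaling by library size only, no low-count filter and limma on log2(FPKM + 1). Others were the replicate number as a block, removal of the loess trend (span 0.4) on gene length, and leaving out each library. Gene length was not taken from annotation. It was the median over libraries of the length implied by count, FPKM and library total, found for 99.5% of tested genes. Intervals cover counting error only.

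The members, the gene lists and the rules were chosen with earlier results of these data known. Per-library values were given for ZNF83, for the 2 nearest tested members on each side, for members called with at least a 2-fold change and for the 3 highest in FPKM. Partners of KAP1 named were TRIM28, SETDB1 and the 6 called with the largest changes. Where the text names a gene outside this rule, it says so. Coordinates and start windows came from RefSeq (GRCh38.p14), and transcripts for open reading frames from GENCODE. Start windows were compared by global alignment with gaps allowed, and identity is the matched bases as a share of the window length of 300. Figures were drawn with matplotlib 3.10.9.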

Additional observations from a re-analysis of the deposited data

How the results depend on the processing

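ZNF432, ZNF616 and ZNF845 were called lower in all 15 settings, ZNF331 in 14 and ZNF600 in 7. ZNF83 was too, but it was chosen for this difference and passed the low-count filter through the vector libraries, so nothing is read from its calls. Of the members not called in the main fit, ZNF766 was called lower in 5 settings and ZNF761 in 4. The log2 fold change of ZNF83 was between −4.50 and −5.17 with single libraries left out, and −1.999 on log2(FPKM + 1), a scale that understates changes of low genes. Of the 31 members tested, 4 to 6 were called lower with single libraries left out. The number was 12 with the length trend removed and 14 with the replicate block. Of all genes tested in those settings, 10.6% to 17.9%, 23.0% and 28.4% were called lower. In every setting 0 members were called higher, beside 11.2% to 29.5% of all genes tested. The median over the members was −0.27 to −0.44 with single libraries left out and −0.23 on log2(FPKM + 1). Same-numbered libraries correlated at 0.65, 0.68 and −0.22 in their deviations. Deviations from a mean of 3 libraries depend on each other, so these values cannot decide whether the numbers pair the samples. The block is given only as an alternative. Of the neighbours, 1 was called lower with no low-count filter (ERVV-2), and 0 to 1 with single libraries left out. KAP1 partners numbered 5 lower with RLE factors; 5 lower and 11 in all with DESeq2; 9 lower, 11 higher and 20 in all with the replicate block; and 5 lower, 9 higher and 14 in all with the length trend removed. Of all tested genes 17.7% were called lower with RLE factors, and 38.5%, 57.9% and 46.2% were called in either direction in these last 3 settings. With single libraries left out the partners numbered 2 to 4 lower, 3 to 8 higher and 5 to 10 in all. The shares of all genes called there were 10.6% to 17.9% lower, 11.2% to 18.4% higher and 21.8% to 36.3% in all. The cause was not tested. Members not called changed sign in 17 cases. ZNF350 was −0.0025 with RLE factors, −0.0028 with DESeq2, −0.031 with library size only and −0.028 on log2(FPKM + 1). With single libraries left out, the range was −0.042 to 0.038 for ZNF350, −0.37 to 0.087 for ZNF841, −0.047 to 0.26 for ZNF480, −0.46 to 0.035 for ZNF578, −0.20 to 0.18 for ZNF611, −0.37 to 0.17 for ZNF28 and −0.70 to 0.17 for ZNF665. The 4 members left out by the low-count filter entered the fit only without it.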
